A study of Mus musculus with 6 samples.

Results

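The genes of the unfolded protein response (UPR) and of the ATF4 programme, described here in double knockout (dKO) nerves, were given as a list of 38 genes. They were found by their symbol in the annotation of the array, and each gene was represented by its brightest probe set (highest mean of the 6 arrays). All 38 were named on the array, among 18194 genes, and 37 of them passed the limit on low values (a log2 value of at least 4 on 3 or more of the 6 arrays) that left 14550 genes for testing. The dKO samples (genotype DhhCre+ HDAC1-2 dKO) were sciatic nerves taken at postnatal day 2, in which Cre recombinase, expressed from desert hedgehog (Dhh) control sequences, had removed the histone deacetylase genes Hdac1 and Hdac2 from Schwann cells. The control samples were nerves of DhhCre– littermates of the same age. All pups were of mixed strain and the perineurium had been removed from every nerve. The labels say neither which further alleles the control pups carried nor whether nerves were pooled. Expression was measured on 1 Affymetrix mouse expression array per sample, with 3 dKO and 3 control samples, and the comparison asks how nerves that start to myelinate differ when their Schwann cells lack both deacetylases.

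A secretory cell folds its membrane and secreted proteins in the endoplasmic reticulum (ER). When unfolded proteins collect there, the sensors ATF6, IRE1 and PERK respond: ATF6 is cleaved to a transcription factor, IRE1 splices Xbp1 messenger RNA, and PERK phosphorylates the translation factor eIF2. ATF6 and XBP1 raise chaperones and degradation factors of the ER. Phosphorylated eIF2 slows translation in general while that of ATF4 goes up, and ATF4 raises genes of amino acid supply and of stress control. Myelinating Schwann cells make large amounts of membrane protein, and mutations that misfold the main peripheral myelin protein are known to set off this response. Cleavage, splicing and translation are not read by these arrays, which measure only how much RNA of each gene is present.

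As a check of the labels, Hdac1 was at 8.75, 8.96 and 8.85 (log2 expression) on the dKO arrays, against 10.48, 10.38 and 10.36 on the control arrays. Hdac2 was at 11.22, 10.81 and 11.19 on the dKO arrays, against 12.34, 12.33 and 12.33 on the control arrays. Both fell beyond the spread between arrays, by limma: the log2 change was -1.55 for Hdac1 (SE 0.13, adjusted p = 0.000271) and that of Hdac2 was -1.26 (SE 0.15, adjusted p = 0.00103). The mean level of 7 marker genes of myelinating Schwann cells was 9.57 to 10.78 on the dKO arrays, against 12.54 to 12.70 on the control arrays. All 7 fell (100%, against 9.38% of all genes tested). The mean of 6 general Schwann cell markers was 9.44 to 9.74 in dKO and 9.80 to 10.08 in control nerves. This mean joins genes that went opposite ways in limma. S100b and Erbb3 fell, each with a change of -1.33 (adjusted p = 0.00761 and 0.00684). Ngfr rose (2.01-fold, adjusted p = 0.00419), and the other 3 were not called. Skeletal muscle markers lay near the low-value limit, at 4.44 to 4.60 in dKO and 4.31 to 4.73 in control nerves. Nerves without their perineurium were extracted with their other cells, so fewer cells of a type and less RNA per cell cannot be told apart. Of 5 perineurial markers, 1 (Cldn1, 3.26-fold) rose and 1 (Itgb4) fell (20% each, against 12.6% and 9.38% of all genes tested). Whether the removal differed between samples was not tested. Xist was high on dKO 2, dKO 3 and control 2 and low on dKO 1, control 1 and control 3. Both sexes were thus present in each group, but not in equal shares. Every adjusted p below is two-sided, from 1 limma fit over all 14550 genes with Benjamini-Hochberg adjustment and a threshold of 0.05, and changes are on the log2 scale, dKO minus control, beside their standard error (SE).

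Most of these genes were not called different between dKO and control nerves. Of the 37 tested genes, 6 rose and 1 fell in dKO nerves. The 6 are 16.2% of the genes, where 12.6% of all genes tested rose, and the 1 is 2.7%, where 9.38% of all genes fell. In either direction 18.9% were called, against 22.0% of all genes, so the share called was near that of the array as a whole. The median change was 0.01, as over all genes tested (0.01), and the median size of a change was 0.21 against 0.28. For 30 of the 37 genes (81.1%) the 95% interval of the change lay within 2-fold in both directions, against 73.6% of all genes. The genes that rose were Ddit4, Cebpb, Nupr1, Sdf2l1, Edem1 and Dnajb9, and the gene that fell was Ppp1r15a. The groups did not overlap for 12 of the 37 genes (32.4%), of which 9 were higher in dKO, against 40.9% of all genes (22.6% higher). Ddit4 and Cebpb were called with at least a 2-fold change, as were 10.4% of all genes. With any 1 array left out, 2 or 3 of the genes were called higher and 0 to 2 lower.

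**Figure D1:**
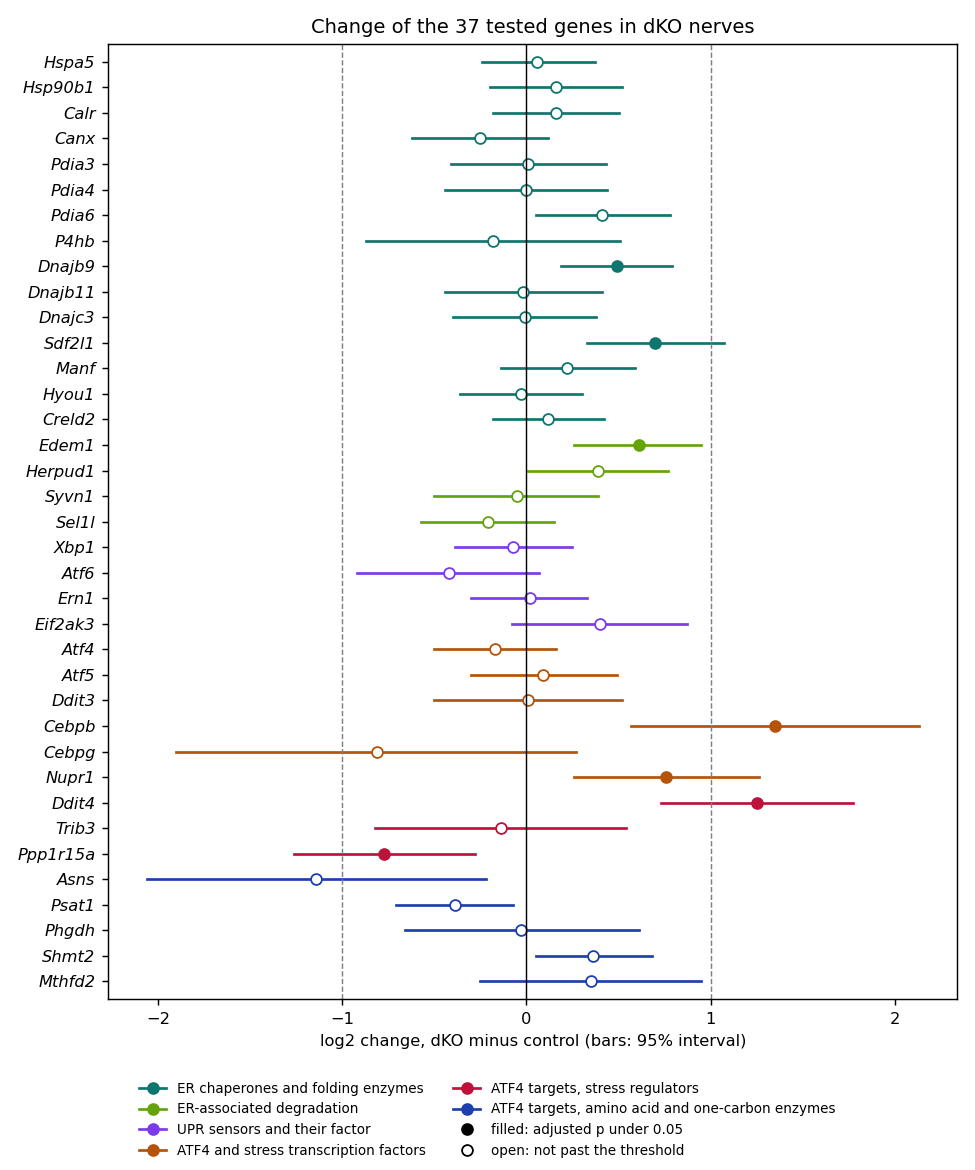
Each point is the log2 change (dKO minus control, horizontal axis) of 1 gene, with its 95% interval as a bar, and colours mark the gene groups. Filled points passed the threshold: 6 lie right of 0 and 1, Ppp1r15a, lies left of it, and the dashed lines mark a 2-fold change, which Cebpb, Ddit4 and Asns exceed.

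Of the 15 ER chaperones and folding enzymes, 2 rose (13.3%, against 12.6% of all genes) and 0 fell (against 9.38%). The changes ran from -0.25 to 0.70, and the median was 0.06. For 14 of the 15 the 95% interval lay within 2-fold. Among the other 13 genes the unadjusted p was under 0.05 only for Pdia6, and with any 1 array left out 0 or 1 of the 15 was called. Hspa5 encodes BiP, the main chaperone of the ER, which holds the 3 sensors inactive while it is free. Its level was 12.78, 12.86 and 12.63 on the dKO arrays, against 12.69, 12.65 and 12.74 on the control arrays. The groups overlapped, and the change was 0.06 (95% interval -0.24 to 0.37, adjusted p = 0.777). Hsp90b1, the Hsp90 chaperone of the ER, was at 12.64, 12.63 and 12.26 in dKO, against 12.27, 12.32 and 12.46 in control nerves. Here dKO 1 and dKO 2 lay above all control arrays and dKO 3 lay below them (change 0.16, 95% interval -0.20 to 0.52, adjusted p = 0.514).

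The lectin chaperones Calr and Canx, which hold glycoproteins while they fold, had changes of 0.16 (SE 0.15) and -0.25 (SE 0.16). The disulfide isomerases Pdia3 and Pdia4 had changes of 0.01 (SE 0.18) and 0.00 (SE 0.19). P4hb, an isomerase that is also a subunit of collagen prolyl hydroxylase, was at 12.01, 12.27 and 11.01 in dKO, against 11.82, 11.93 and 12.09 in control nerves. Its change of -0.18 (SE 0.30) was the least precise of the group, and it was 0.19 without dKO 3, the lowest array. Pdia6, which acts with BiP, was at 9.93, 10.32 and 10.28 in dKO, against 9.63, 9.79 and 9.87 in control nerves. Its groups did not overlap, but the change of 0.41 (SE 0.16, adjusted p = 0.103) did not pass, and with its dim second probe set averaged in it was -0.04. Hyou1, which exchanges nucleotide on BiP, and Dnajc3, a J-domain partner of BiP, had changes of -0.03 (SE 0.15) and -0.01 (SE 0.17). Dnajb11, another J-domain partner, had a change of -0.02 (SE 0.18). Its control arrays lay between 11.54 and 11.55, while dKO 3 was at 11.14 and dKO 1 and dKO 2 at 11.70 and 11.75. Manf and Creld2, small ER proteins that are also secreted, had changes of 0.22 (SE 0.16) and 0.12 (SE 0.13).

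The genes of the group that rose encode partners of BiP. Sdf2l1, which works with the J-domain protein of Dnajb11, was at 8.27, 8.48 and 8.69 on the dKO arrays, against 7.64, 7.76 and 7.93 on the control arrays. Every dKO array lay above every control array, and the rise was 0.70 (SE 0.16, 1.62-fold, adjusted p = 0.0170). The call was lost without dKO 2, control 1 or control 2 (adjusted p up to 0.059). Dnajb9, a J-domain protein that brings unfolded proteins to BiP, was at 8.86, 8.77 and 8.94 in dKO, against 8.33, 8.42 and 8.35 in control nerves. The groups stood apart with little spread, and the rise was 0.49 (SE 0.13, 1.40-fold, adjusted p = 0.0297). That call was lost with any 1 of the 6 arrays left out, with arrays centred on their median and with a block on the replicate number or on Xist, while the change kept a value of 0.41 to 0.53 (adjusted p up to 0.0942).

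**Figure D2:**
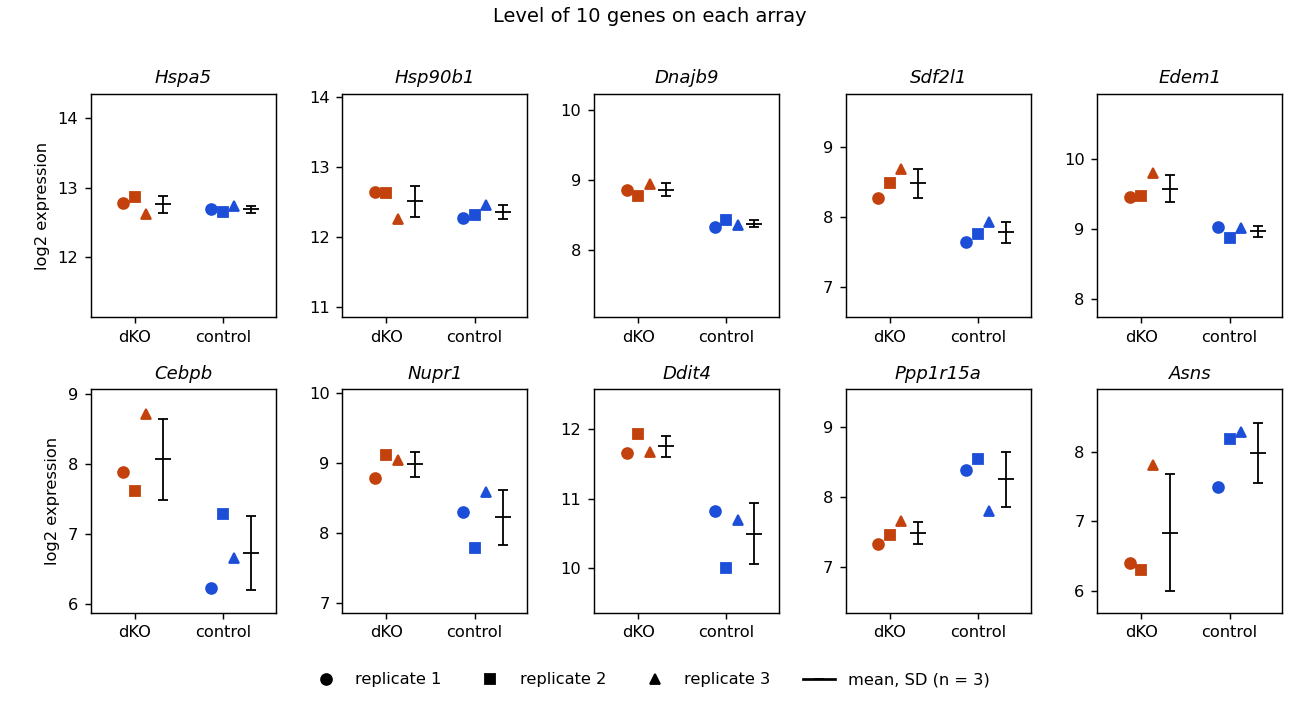
Log2 expression (vertical axes, all of the same length in log2 units) of 10 genes on each array, dKO left and control right, with marker shapes for the replicate number and the mean with its SD beside them. Hspa5 and Hsp90b1 overlap between the groups, Dnajb9, Sdf2l1, Edem1, Cebpb, Nupr1 and Ddit4 lie higher on every dKO array, Ppp1r15a lies lower on every dKO array, and for Asns only dKO 3, at 7.80, reaches the control arrays.

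Many ER chaperone genes carry a known element at the start of the gene, the ER stress response element (ERSE), to which ATF6 and XBP1 bind together with the factor NF-Y. The letters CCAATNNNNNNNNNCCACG were searched on both strands of RefSeq promoter windows (GRCm38.p6), each running from 250 bases before a gene's start to 50 after it. Windows were found for 35 of the 38 genes; Manf, Hyou1 and Atf6 had none in the table used. The element was found in 0.119% of 32851 mouse windows and in 8 of the 35 genes, 7 of them among the 13 chaperones with a window. The 9 matches are shown 5′ to 3′ on the strand of the element, with the fixed letters in capitals, to set them beside the changes of their genes.
Hspa5 (chr2:34772025-34772043, + strand): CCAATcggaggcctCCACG
Calr (chr8:84847075-84847093, + strand): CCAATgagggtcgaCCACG
Hsp90b1 (chr10:86705638-86705656, - strand): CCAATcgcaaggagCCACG
Hsp90b1 (chr10:86705533-86705551, + strand): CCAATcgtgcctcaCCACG
Canx (chr11:50325800-50325818, - strand): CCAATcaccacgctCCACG
Pdia6 (chr12:17266491-17266509, + strand): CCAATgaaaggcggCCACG
Dnajc3 (chr14:118937827-118937845, + strand): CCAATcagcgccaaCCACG
Creld2 (chr15:88819520-88819538, - strand): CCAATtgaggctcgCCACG
Syvn1 (chr19:6046532-6046550, + strand): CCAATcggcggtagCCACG
All 8 genes were tested and 0 were called in limma, against 22.0% of all genes, and 1 of them, Pdia6, had an unadjusted p under 0.05. Whether the element acts in these nerves was not tested. Their changes ran from -0.25 in Canx to 0.41 in Pdia6, with a median of 0.09. Of the 17 tested genes in the whole table with such a window, which include these 8, 2 rose and 1 fell, with a median of 0.12. Sdf2l1, Dnajb9 and Edem1, which rose, hold no exact match of these letters in their windows.

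Promoters of 3 of these genes are shown whole, 5′ to 3′ on the strand of the gene, with the matched stretch in capitals. Hspa5 and Hsp90b1 hold 1 and 2 matches, and Sdf2l1, called higher, holds none of the 4 motifs searched.
Hspa5 promoter (chr2:34771840-34772139, + strand): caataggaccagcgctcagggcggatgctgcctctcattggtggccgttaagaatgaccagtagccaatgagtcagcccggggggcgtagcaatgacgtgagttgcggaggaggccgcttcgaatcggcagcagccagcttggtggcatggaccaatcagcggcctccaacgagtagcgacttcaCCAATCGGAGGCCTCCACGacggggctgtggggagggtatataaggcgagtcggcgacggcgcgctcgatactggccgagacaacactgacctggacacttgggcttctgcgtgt
Hsp90b1 promoter (chr10:86705395-86705694, - strand): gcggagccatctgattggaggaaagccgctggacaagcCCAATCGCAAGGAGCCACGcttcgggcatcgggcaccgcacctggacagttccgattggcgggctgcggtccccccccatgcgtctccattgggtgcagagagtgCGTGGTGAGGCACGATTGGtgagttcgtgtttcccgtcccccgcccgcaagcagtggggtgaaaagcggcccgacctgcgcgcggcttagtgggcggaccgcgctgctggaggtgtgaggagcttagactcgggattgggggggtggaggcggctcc
Sdf2l1 promoter (chr16:17132334-17132633, - strand): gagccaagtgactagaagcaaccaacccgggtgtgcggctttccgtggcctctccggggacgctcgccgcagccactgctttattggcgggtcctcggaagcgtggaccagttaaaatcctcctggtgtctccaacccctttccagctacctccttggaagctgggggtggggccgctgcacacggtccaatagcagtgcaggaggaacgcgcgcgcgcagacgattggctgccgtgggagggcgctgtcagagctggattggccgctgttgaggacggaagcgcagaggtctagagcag

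Genes of ER-associated degradation, which send misfolded proteins from the ER to the proteasome, held 1 called gene, Edem1. Of 4 genes, 1 rose (25%, against 12.6% of all genes) and 0 fell (against 9.38%), with a median change of 0.17. Edem1, a lectin that takes misfolded glycoproteins out of the folding cycle, was at 9.46, 9.48 and 9.80 on the dKO arrays, against 9.03, 8.88 and 9.02 on the control arrays. All dKO arrays lay above all control arrays, with a rise of 0.61 (SE 0.15, 1.52-fold, adjusted p = 0.0223). The call was lost without control 2 or control 3 and with a block on the replicate number or on Xist (adjusted p up to 0.0824). Its dimmer probe set had a change of 0.25 (SE 0.17), which gave 0.43, not past the threshold, for the average. Herpud1, a scaffold of the degradation complex, was at 7.05, 7.05 and 7.49 in dKO, against 6.91, 6.81 and 6.71 in control nerves. The groups did not overlap, and the change of 0.39 (SE 0.17, adjusted p = 0.136) did not pass and was 0.24 without dKO 3. The ubiquitin ligase gene Syvn1 and its adaptor gene Sel1l had changes of -0.05 (SE 0.19) and -0.21 (SE 0.16), the second of which was -0.11 without dKO 3.

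A variant of the element, ERSE-II, which reads ATTGG, any 1 base and then CCACG (searched on both strands), was found in 0.0365% of all windows and in Herpud1 and Dnajb11, neither of which was called. The Herpud1 window also held a match of the C/EBP-ATF response element (CARE), to which ATF4 binds with a C/EBP partner. CARE was searched as TGATGNAA on both strands, and 3.97% of all windows held a match. No match of one motif overlapped a match of another. The Herpud1 promoter is shown because it holds matches of both motifs, with CARE (on the opposite strand) and then ERSE-II in capitals. Whether either match acts in these nerves was not tested.
Herpud1 promoter (chr8:94386179-94386478, + strand): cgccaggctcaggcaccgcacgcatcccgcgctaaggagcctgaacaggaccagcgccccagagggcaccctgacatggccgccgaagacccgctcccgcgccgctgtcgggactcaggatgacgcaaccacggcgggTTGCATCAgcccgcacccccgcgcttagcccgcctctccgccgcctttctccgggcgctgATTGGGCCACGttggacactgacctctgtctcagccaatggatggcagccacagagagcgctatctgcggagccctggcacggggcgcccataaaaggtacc

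The sensors and Xbp1 were not called. Of 4 genes 0 passed in limma, where 22.0% of all genes did, and 0 had an unadjusted p under 0.05. Xbp1 was at 8.85, 8.94 and 8.89 on the dKO arrays, against 9.11, 8.80 and 8.98 on the control arrays. The groups overlapped (change -0.07, 95% interval -0.39 to 0.25), and its other 3 probe sets had changes of -0.19 to -0.03. Whether the spliced form differed was not measured. Ern1, which encodes IRE1, had a change of 0.02 (SE 0.14). Eif2ak3, which encodes PERK, was at 8.47, 8.41 and 9.04 in dKO, against 8.01, 8.44 and 8.28 in control nerves, with dKO 3 above the rest (change 0.40, SE 0.21, adjusted p = 0.214). The Eif2ak3 change was 0.20 without dKO 3, and it was 0.02 with its probe sets averaged, the second of which was at -0.31. Atf6 was at 8.84, 8.92 and 8.15 in dKO, against 8.93, 9.12 and 9.14 in control nerves. Its groups did not overlap, with dKO 3 far below the others, and the change of -0.42 (SE 0.22, adjusted p = 0.207) did not pass and was -0.18 without dKO 3. The 3 Atf6 probe sets had changes of -0.42, -0.54 and -0.43.

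Among Atf4 and the other stress transcription factors, 2 of 6 rose (33.3%, against 12.6% of all genes) and 0 fell (against 9.38%). The median change was 0.05. With any 1 array left out, 0 or 1 of them was called. Atf4 was at 10.91, 10.62 and 10.76 on the dKO arrays, against 11.05, 10.86 and 10.89 on the control arrays. The groups overlapped, and the change was -0.17 (SE 0.14, adjusted p = 0.444). Its second brightest probe set fell by 0.59 (SE 0.16, adjusted p = 0.0326 over all probe sets), and the dimmest had a change of -0.17 (SE 0.14). The probe set used has a name ending in x_at, the manufacturer's mark for probes that may bind other transcripts, as have 6 of the 38. Ddit3, which encodes the stress factor CHOP, was at 7.91, 7.79 and 8.15 in dKO, against 8.41, 7.83 and 7.60 in control nerves, and the groups overlapped (change 0.01, SE 0.22, adjusted p = 0.987). Atf5, a related factor, had a change of 0.09 (SE 0.17).

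Cebpb, a C/EBP factor of stress and inflammation, was at 7.88, 7.61 and 8.72 on the dKO arrays, against 6.22, 7.28 and 6.66 on the control arrays. All dKO arrays were above all control arrays, both groups were spread widely, and the rise was 1.35 (SE 0.34, 2.55-fold, adjusted p = 0.0240). The call was lost without dKO 1, dKO 3, control 1 or control 3 (adjusted p up to 0.0743). Its second probe set, at 5.07 in dKO and 5.35 in control nerves, had a change of -0.28 (SE 0.15), and the average of both did not pass, at 0.53. Macrophages also express Cebpb. Of 6 tested macrophage markers, 2 (Aif1 and Tyrobp) rose (33.3%, against 12.6% of all genes), and Itgam was under the limit on all arrays. The mean level of the 6 was 7.81, 7.99 and 8.73 on the dKO arrays, against 7.53, 7.55 and 7.39 on the control arrays. The part of macrophages in the rise of Cebpb was not tested.

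Nupr1, a small stress-induced nuclear protein, was at 8.78, 9.12 and 9.05 in dKO, against 8.30, 7.79 and 8.59 in control nerves. The groups did not overlap, and the rise was 0.76 (SE 0.22, 1.69-fold, adjusted p = 0.0390), a call that held with control 3 left out and was lost with any other array left out, with arrays centred and with either block (adjusted p up to 0.118). Cebpg, a dimer partner of ATF4, was at 7.20, 7.25 and 8.42 in dKO, against 9.25, 8.59 and 7.46 in control nerves. Both groups were spread over more than a log2 unit and overlapped, so a change of -0.81 (SE 0.47, 95% interval -1.90 to 0.27, adjusted p = 0.267) could not be told from the spread. It was -0.41 without control 1, -1.30 without control 3 (adjusted p = 0.0558) and -0.52 with probe sets averaged.

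Of the 9 ATF4 targets, 8 were tested, and the median change was -0.08. Of these 1 rose (12.5%, against 12.6% of all genes) and 1 fell (12.5%, against 9.38%), near the shares of the array as a whole. Chac1, which encodes an enzyme that breaks down glutathione, was under the low-value limit on all 6 arrays, with values from 3.04 to 3.53 in dKO and from 3.46 to 3.85 in control nerves. Ddit4, which encodes an inhibitor of mTOR signalling, was at 11.66, 11.93 and 11.67 on the dKO arrays, against 10.82, 10 and 10.69 on the control arrays. The groups stood clearly apart, with a rise of 1.25 (SE 0.23, 2.38-fold, adjusted p = 0.00583). Of the 7 called genes, Ddit4 was the one whose call held under all 13 alternative settings, including each array left out (adjusted p up to 0.0272). It has 1 probe set, and stress signals other than ATF4, such as glucocorticoids and low oxygen, also raise it.

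Ppp1r15a, which encodes the subunit that lets a phosphatase restore eIF2, was at 7.33, 7.46 and 7.65 on the dKO arrays, against 8.39, 8.55 and 7.80 on the control arrays. All dKO arrays lay below all control arrays, with control 3 close to them. It fell by 0.77 (SE 0.21, adjusted p = 0.0352), and the call was lost without dKO 1, dKO 2, control 1 or control 2 (adjusted p up to 0.113). Trib3, a pseudokinase that restrains ATF4 and CHOP, was at 5.12, 5.36 and 6.32 in dKO, against 5.52, 5.89 and 5.80 in control nerves, and the groups overlapped (change -0.14, SE 0.29).

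The 5 enzymes of amino acid and one-carbon supply were not called in limma, where 22.0% of all genes were. Still, 3 (Asns, Psat1 and Shmt2) had an unadjusted p under 0.05, and the changes of the 5 lay on both sides of 0. Asns, which encodes asparagine synthetase, was at 6.41, 6.30 and 7.80 on the dKO arrays, against 7.49, 8.18 and 8.28 on the control arrays. On dKO 1 and dKO 2 it was more than a log2 unit under every control array, while dKO 3 lay within the control range. The change was -1.14 (SE 0.40, adjusted p = 0.0789), and without dKO 3 it was -1.62 (adjusted p = 0.00686). With any other array left out it lay between -1.39 and -0.87 and did not pass (adjusted p 0.0702 to 0.218). The Asns change also passed with the probe sets averaged, with arrays centred and with the replicate block. The Asns probe set used has a name ending in x_at. Its dimmer probe set, without that mark, had a change of -1.25 (SE 0.33) and passed (adjusted p = 0.0339 over all probe sets). Psat1, of serine synthesis, was at 12.17, 12.29 and 11.97 in dKO, against 12.52, 12.55 and 12.53 in control nerves. Its groups did not overlap, and the change of -0.39 (SE 0.14, adjusted p = 0.0852) did not pass. Phgdh, which encodes the enzyme of the first step of that pathway, had a change of -0.03 (SE 0.28), with values from 11.87 to 12.83 in dKO and from 11.91 to 12.63 in control nerves. The mitochondrial one-carbon genes Shmt2 and Mthfd2 were both not called. Shmt2 had a change of 0.36 (SE 0.14, adjusted p = 0.101) with groups that did not overlap, and Mthfd2 one of 0.35 (SE 0.26, adjusted p = 0.388). Without dKO 3 the Mthfd2 change was 0.09, and without dKO 1 or control 1 it was 0.54.

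CARE, the element bound by ATF4, was found in 3.97% of all windows and in 5 of the 35 genes. The matches are shown 5′ to 3′ on the strand of the element, with the fixed letters in capitals, to set them beside the mixed changes of their genes.
Chac1 (chr2:119351049-119351056, - strand): TGATGcAA
Trib3 (chr2:152344039-152344046, + strand): TGATGtAA
Asns (chr6:7693225-7693232, - strand): TGATGaAA
Nupr1 (chr7:126625573-126625580, + strand): TGATGcAA
Herpud1 (chr8:94386317-94386324, - strand): TGATGcAA
Of these, Nupr1 rose, Asns, Trib3 and Herpud1 had the changes given above, and Chac1 was not tested. A last motif, the UPR element with the letters TGACGTGG, was found in 0.676% of all windows and in none of the 35 genes. A match or its absence describes only these letters in these windows. The Asns promoter is shown because this gene had the lowest change among the 37, with the match in capitals near the start.
Asns promoter (chr6:7693160-7693459, - strand): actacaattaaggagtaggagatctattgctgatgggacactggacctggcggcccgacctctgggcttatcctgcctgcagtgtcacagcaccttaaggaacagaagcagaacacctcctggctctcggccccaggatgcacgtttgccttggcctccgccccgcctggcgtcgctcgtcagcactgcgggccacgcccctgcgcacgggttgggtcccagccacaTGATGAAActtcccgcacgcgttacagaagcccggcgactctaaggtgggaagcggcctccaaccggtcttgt

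Chaperones and ATF4 targets were set against each other array by array. Relative to the control mean, the mean of the 15 chaperones was 0.14, 0.24 and -0.02 on dKO 1, dKO 2 and dKO 3, and between -0.07 and 0.07 on the control arrays. The mean of the 8 tested ATF4 targets was -0.29, -0.19 and 0.29 on the same dKO arrays, and between -0.06 and 0.05 on the control arrays. The difference (chaperones minus targets) was 0.43, 0.43 and -0.31 on the dKO arrays, against -0.12, -0.02 and 0.13 on the control arrays. It thus ran one way on dKO 1 and dKO 2 and the other way on dKO 3. Its mean in dKO nerves was 0.19 ± 0.43 (SD, n = 3), less than the spread between the dKO arrays, and it was 0.43 without dKO 3 and 0.06 without dKO 1 or dKO 2. No test was made of this score, because the genes were chosen with results known.

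**Figure D3:**
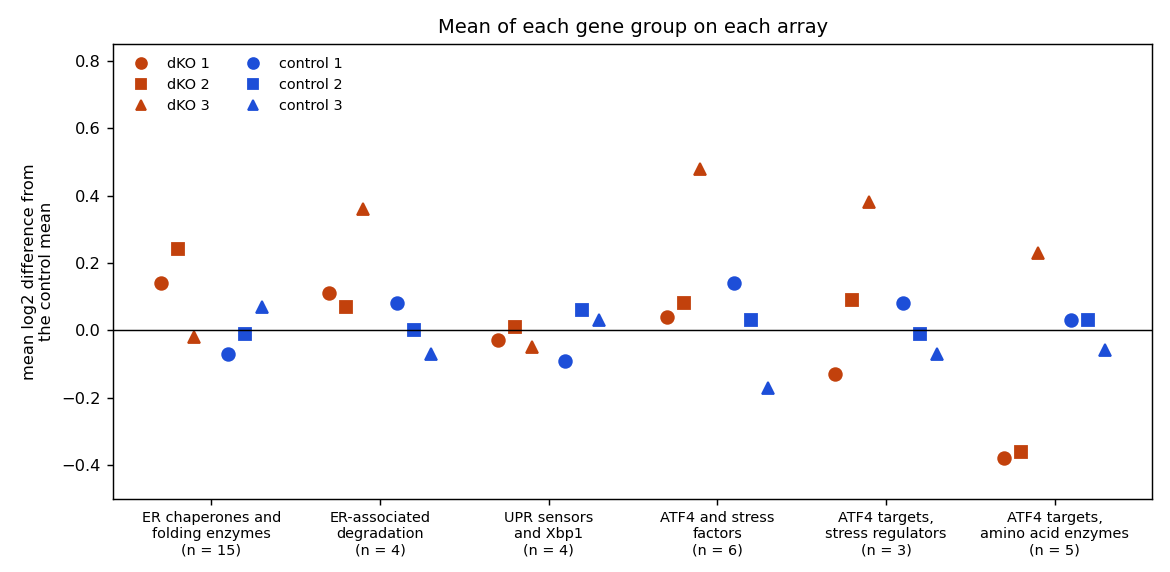
Mean log2 difference from the control mean (vertical axis) of each gene group on each array, dKO in orange left of control in blue, with marker shapes for the replicate number. On dKO 3 the amino acid enzymes lie at 0.23, where dKO 1 and dKO 2 lie at -0.38 and -0.36, and the chaperones lie at -0.02, under the 0.14 and 0.24 of dKO 1 and dKO 2.

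The dKO 3 array stood apart from the other dKO arrays over many of these genes. For 25 of 37 genes (67.6%) it was the dKO array farthest from the median of its group, against 52.2% of all genes tested. Asns, Cebpg and Trib3 were higher on it than the mean of dKO 1 and dKO 2 by 1.45, 1.19 and 1.08. P4hb, Atf6 and Dnajb11 were lower on it, with differences of -1.13, -0.73 and -0.58. Over all genes its correlation with dKO 1 and dKO 2 was 0.980 for both, and that between dKO 1 and dKO 2 was 0.991. Control 1 had similar values within its group, 0.9836 with control 2 and 0.9815 with control 3, which had 0.9884 with each other. It was the control array farthest from the group median for 42% of all genes tested and 37.8% of the 37. The macrophage markers given above were highest on dKO 3, and their part in its differences from dKO 1 and dKO 2 was not tested.

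Other genes of the same pathways, and chaperones and proteases outside the ER, were taken from lists written from general knowledge. These lists, too, were chosen with earlier results of these data known. In all, 122 genes outside the 38 were tested, of which 18 (14.8%) rose and 8 (6.56%) fell, again near the 12.6% and 9.38% of all genes. The 122 include 12 cytosolic heat shock genes and 8 mitochondrial chaperones and proteases, which are described at the end. Among 27 other ER folding and quality control genes, 6 rose (22.2%) and 1 fell (3.7%), and the median change was 0.06. With any 1 array left out 4 or 5 were called higher and 0 lower, and with probe sets averaged 3 were called higher. The gene that fell was Ero1a, an ER oxidase, named after its values were seen. Fkbp11, a prolyl isomerase of the secretory pathway, was at 7.36, 7.67 and 7.34 on the dKO arrays, against 5.89, 5.84 and 6.42 on the control arrays. Its rise of 1.41 (SE 0.19, adjusted p = 0.00170) was that of the brightest probe set, and with its probe sets averaged the change was 0.38 and did not pass. The disulfide isomerase gene Pdia5 rose by 1.06 (SE 0.20), Txndc5, of the same family, by 0.75 (SE 0.15), and the prolyl isomerase gene Fkbp7 by 0.88 (SE 0.20, 0.51 and not past the threshold with its probe sets averaged).

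Of 21 other genes of ER-associated degradation and UPR signalling, 1 rose (4.76%, against 12.6% of all genes) and 0 fell (against 9.38%). Their median change was -0.06. The gene was Creb3l1, an ER-bound factor that supports collagen secretion, at 8.88, 8.82 and 9.33 on the dKO arrays, against 7.02, 7.88 and 7.95 on the control arrays (change 1.39, SE 0.27, adjusted p = 0.00752). Nerve fibroblasts secrete much collagen. Of 7 fibroblast markers, 4 (Pdgfra, Dcn, Lum and Fbln1) rose (57.1%, against 12.6% of all genes). The mean level of all 7 was 11.85 to 11.99 on the dKO arrays, against 11.17 to 11.54 on the control arrays. The collagens Col1a1, Col1a2 and Col3a1 had changes of -0.03 to 0.12. Of 5 pericyte markers, 4 rose (80%) and 0 fell. The part of fibroblasts or pericytes in the changes of folding genes was not tested.

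Of 11 eIF2 kinases, eIF2 and eIF2B subunits and their partners, 2 rose (18.2%, against 12.6% of all genes) and 0 fell (against 9.38%). Their median change was -0.15. The kinase genes Eif2ak2, of the antiviral response, and Eif2ak4, of the response to amino acid lack, both rose, Eif2ak2 with a change of 0.75 (SE 0.19, adjusted p = 0.0259) and Eif2ak4 with one of 0.59 (SE 0.18, adjusted p = 0.0487). The Eif2ak2 call was lost without dKO 1, dKO 2, control 2 or control 3. The Eif2ak4 call was lost with any 1 array left out, without the low-value limit and with an intensity trend. It was also lost with a block on the replicate number or on Xist. With arrays centred on their median both calls were lost, and 0 of the 11 genes were called. The 12 aminoacyl-tRNA synthetases, many of which ATF4 raises, held 0 calls in limma, against 22.0% of all genes, and 0 unadjusted p under 0.05. They held 0 groups that did not overlap, against 40.9% of all genes. Their changes ran from -0.35 (Sars, SE 0.18) to 0.19. The 95% interval of all 12 lay within 2-fold, as it did for 73.6% of all genes.

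Of 8 amino acid transporters of the ATF4 programme, 1 rose (12.5%, against 12.6% of all genes) and 2 fell (25%, against 9.38%). Only 1 was called lower without dKO 1, dKO 2 or any 1 control array. The count called higher was 0 without control 3 and 2 without control 2. Slc38a2, a neutral amino acid transporter, was at 10.28, 9.84 and 10.29 on the dKO arrays, against 10.92, 11.03 and 11.13 on the control arrays, and fell by 0.89 (SE 0.17, adjusted p = 0.00688). Slc3a2, the heavy chain shared by several transporters, fell by 0.47 (SE 0.13, adjusted p = 0.0323), a call that held only without dKO 3 among the single arrays left out. The cationic transporter gene Slc7a1 rose by 0.68 (SE 0.15, adjusted p = 0.0140), a call lost without dKO 1 or control 3. Of 10 other enzymes of serine, proline and one-carbon metabolism, 3 rose (30%, against 12.6% of all genes) and 2 fell (20%, against 9.38%). Their median change was 0.16 (0.06 without dKO 3 and 0.08 without control 3), and without any 1 array 1 was called lower. Aldh1l2, a mitochondrial folate enzyme, rose by 1.31 (SE 0.19, adjusted p = 0.00211) and Pck2, the mitochondrial phosphoenolpyruvate carboxykinase, by 1.03 (SE 0.18, adjusted p = 0.00469). The cytosolic gene Shmt1 rose by 0.70 (SE 0.13), while Mthfd2l, a relative of Mthfd2, fell by 1.10 (SE 0.23, adjusted p = 0.0116).

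Of 13 other targets of ATF4 or of the wider stress response, 4 rose (30.8%, against 12.6% of all genes) and 2 fell (15.4%, against 9.38%). The median change was 0.39 (0.20 without dKO 3). The count called lower was 1 without dKO 1, dKO 2, control 2 or control 3. Sesn2, a stress-induced metabolic regulator, was at 6.88, 7.26 and 7.67 on the dKO arrays, against 6.0, 5.15 and 5.64 on the control arrays. All dKO arrays lay above all control arrays, with a rise of 1.67 (SE 0.26, adjusted p = 0.00324). Averaging its probe sets gave 1.07. The lipoprotein receptor gene Vldlr rose by 1.34 (SE 0.15, adjusted p = 0.000641) and Eif4ebp1, which encodes a brake on translation initiation, by 1.03 (SE 0.19, adjusted p = 0.00619). Ndrg1, a gene of myelinating Schwann cells whose loss causes a neuropathy, fell by 0.92 (SE 0.15, adjusted p = 0.00340), and by 1.53 with its probe sets averaged. These genes have other known inducers as well, among them p53 for Sesn2.

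**Figure D4:**
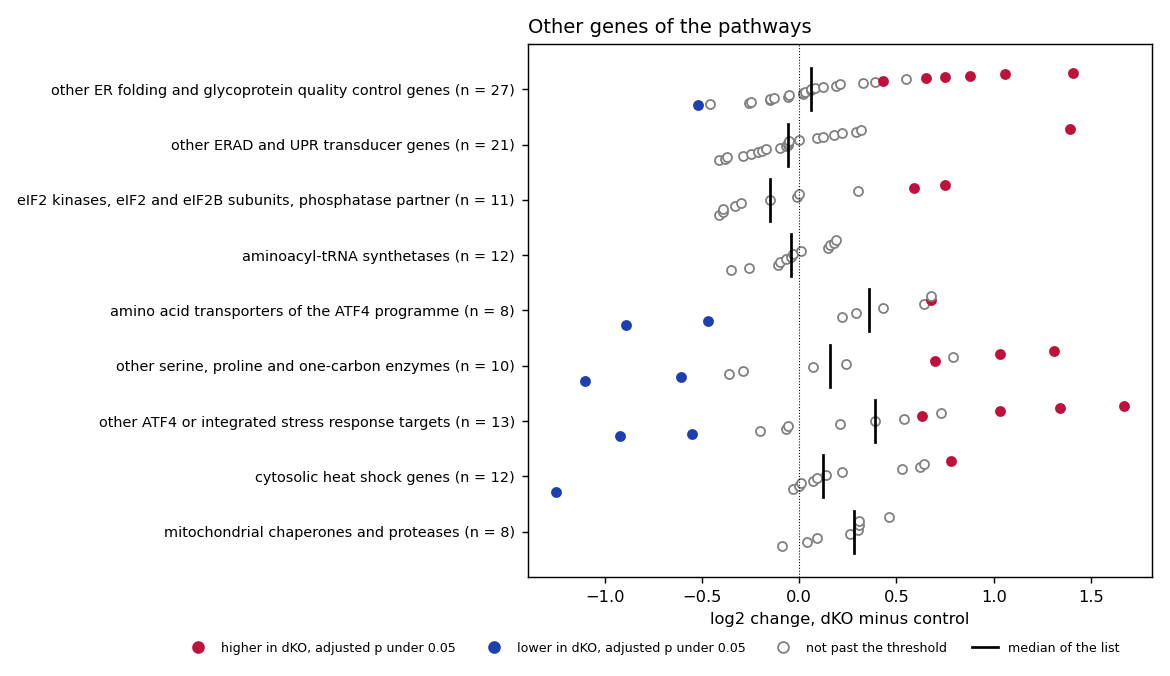
Each point is the log2 change (dKO minus control, horizontal axis) of 1 gene outside the 38, in rows by list, filled where the adjusted p was under 0.05 (red higher, blue lower), with a black bar at the median of each list. The 12 aminoacyl-tRNA synthetases lie between -0.35 and 0.19 with no filled point, and the medians of all 9 lists lie between -0.15 and 0.39.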

How the data were processed

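The authors deposited 1 table of log2 expression, whose scale was inferred from its range (1.66 to 14.94). The submitters' processing notes name GCOS 1.2 and GCRMA but no settings. Every array had a median of 5.77 and the arrays' sorted values were equal to within 0.01, so a shift shared by all genes is hidden. No 2 arrays held identical values. The design text names 3 mutants and 3 littermates. The number of arrays limits the precision (median SE 0.17 over all genes).

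Of 45101 probe sets, 34958 carried 1 gene symbol, 932 carried several, and 9211 have no name here. Gene IDs were matched to a RefSeq table of GRCm38.p6 for current symbols. The fit used limma 3.58.1 (lmFit, eBayes) in R 4.3.3 without covariates and was tested on simulated data. The 38 genes and all lists were chosen with earlier results of these data known. All genes of the list are named, and of each other list up to 4 called genes with the largest change (up to 2 where 0 were called). List genes without a name on the array were not analysed here. Whether the replicate numbers pair the samples is not known. Correlations of same-numbered deviations were 0.04, -0.12 and -0.23, and those of other-numbered ones ran from -0.16 to 0.22. Deviations within a group of 3 arrays depend on each other, so these values can neither show nor exclude pairing. Alternatives were the low-value limit, averaged probe sets, centred arrays, an intensity trend, a replicate block, a block on Xist (added after seeing the data) and each array left out.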

Additional observations from a re-analysis of the deposited data

How the results depend on the processing

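Under 13 alternatives the call of Ddit4 held in all, and those of Sdf2l1, Edem1, Cebpb, Ppp1r15a, Nupr1 and Dnajb9 held in 10, 8, 8, 8, 5 and 4. The number of genes called higher was 3 with the replicate block, 3 with the Xist block, and 2 to 3 with an array left out, against 6. The number called lower was 2 with probe sets averaged, 2 with arrays centred, 2 with an intensity trend and 0 to 2 with an array left out, against 1. The replicate block lost the calls of Dnajb9, Edem1, Nupr1 and Ppp1r15a, gained that of Asns and changed no other call among the 37 genes. The 30 genes not called gave 389 values under the alternatives, of which 5 were called (4 for Asns, 1 for Psat1) and 29 had the other sign. With arrays centred, Hspa5 had a change of -0.01, Pdia3 of -0.07, Ern1 of -0.06 and Ddit3 of -0.07. With probe sets averaged, Pdia6 had -0.04 and Syvn1 0.07. With the Xist block, Dnajb11 had 0.03 and Ern1 -0.02. With an array left out, the change ran from -0.11 to 0.16 for Pdia3, -0.44 to 0.19 for P4hb, -0.13 to 0.18 for Dnajb11, -0.15 to 0.11 for Dnajc3, -0.08 to 0.07 for Hyou1, -0.26 to 0.06 for Syvn1, -0.06 to 0.08 for Ern1, -0.05 to 0.22 for Atf5, -0.17 to 0.24 for Ddit3, -0.50 to 0.10 for Trib3 and -0.30 to 0.18 for Phgdh. The cause of these shifts was not tested. The number called over all genes ran from 2178 to 3479. The difference between chaperones and targets, 0.19, ran from 0.06 to 0.43 with an array left out, and was 0.25 with the Xist block and 0.19 with the replicate block or the trend.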

Other observations

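Chaperones outside the ER were measured on the same arrays. Of 12 cytosolic heat shock genes, 1 rose and 1 fell (8.33% each, against 12.6% and 9.38% of all genes), with a median change of 0.12. Without dKO 1 or control 2, 2 were called higher. Cryab, a small heat shock protein abundant in myelinating Schwann cells, was at 12.20, 11.60 and 11.83 on the dKO arrays, against 13, 13.19 and 13.19 on the control arrays, and fell by 1.25 (SE 0.18, adjusted p = 0.00202 in limma). Hsph1, a partner of the main cytosolic chaperones, was at 11.31, 11.43 and 11.49 on the dKO arrays, against 10.73, 10.48 and 10.67 on the control arrays, and rose by 0.78 (SE 0.14, adjusted p = 0.00548). Both calls held with any 1 array left out. Of 8 mitochondrial chaperones and proteases 0 were called in limma, against 22.0% of all genes. In that fit 0 had an unadjusted p under 0.05, while with an intensity trend 1 was called higher. Their changes ran from -0.09 to 0.46 (Clpx, SE 0.22; Clpp, 0.31, SE 0.25).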
